A study of Rattus norvegicus with 3 samples.

Results

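Neurog1, Neurog2, Insm1, Eomes, Gadd45g and Btg2 are 6 genes that mark the step from dividing stem cell to neuron in the embryonic cerebral cortex. They were looked up by symbol among the 29772 genes of the count matrices, and all 6 were found. Their levels and their detection in the same cell were followed through radial glia, intermediate progenitors and neurons of the wildtype rat (Rattus norvegicus) cortex. Freshly prepared cortical cells, dissociated with papain, were read cell by cell with a droplet 3′ RNA assay (10x Genomics), in 3 libraries to which the submitters gave the labels E14, E16 and E18, for embryonic days 14, 16 and 18. The labels name no treatment and no other genotype, and do not say how many embryos each library holds. Part of the protocol text also describes an expansion culture, oligonucleotide multiplexing and a sort for human cells. None of that fits freshly prepared rat cells, and the labels do not settle which steps were used for these libraries.

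Each label has 1 library, so no difference has a replicate check and no test was made. Intervals given below are exact 95% intervals that cover counting error only. Differences between libraries are differences between these 3 preparations. Their order by label is also uncertain. Hmga2, a chromatin factor known to be high in early radial glia, stood in radial glia at 11.9, 223 and 21.2 counts per 1000000 (CPM) in the libraries labelled E14, E16 and E18. Aldoc, an enzyme known to mark late radial glia, stood at 729, 17.1 and 243 CPM. Both genes placed the library labelled E16 at the early end and that labelled E14 at the late end. The embryonic days are therefore used below as names of libraries, with no course over time read from them.

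In the developing cortex, radial glia line the ventricle, divide, and give rise to neurons either directly or through intermediate progenitors, which divide in the subventricular zone. The proneural factors Neurog1 and Neurog2 are basic helix-loop-helix (bHLH) transcription factors that pair with E proteins, bind E-boxes and switch on neuronal genes and Notch ligands, while Notch signalling in neighbouring cells keeps Hes genes on and proneural genes off. Insm1 is a zinc-finger factor known to promote the formation of intermediate progenitors, and Eomes (also called Tbr2) is the T-box factor by which these cells are usually recognised. Gadd45g is a small stress- and differentiation-linked protein that restrains the cell cycle. Btg2 (also called Tis21) is an antiproliferative protein known to mark progenitors about to make neurons.

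Cell classes were rebuilt here by clustering, with the 6 members and the related genes listed below kept out of the clustering. The members were also kept out of the marker lists used for naming. They could still stand among the leading genes of a cluster, which the naming also weighed, as Eomes did in cluster 6. After filtering, 4286, 4977 and 5431 cells remained in the libraries labelled E14, E16 and E18, at a median of 11199.5, 12264 and 10477 unique molecular identifiers (UMIs, counted transcripts) per cell. Radial glia, named from genes such as Vim, Slc1a3 and Sox2, numbered 410, 2978 and 1809 cells. Intermediate progenitors, named from genes such as Mfng, Sstr2 and Hes6, numbered 435, 404 and 1062, in clusters 6, 11 and 15, which all 3 libraries entered. Excitatory neurons numbered 2782, 598 and 2254. Radial glia came mostly from clusters 1, 3, 14 and 16 in the library labelled E16 and from clusters 2, 8 and 18 in the others, so the libraries differ in which clusters make up that class. Cluster 12, with 558 of its 570 cells from the library labelled E14, and cluster 17, with 370 of 410 cells from that labelled E16, stayed unnamed. Few barcodes were shared between libraries, 8 between the kept cells labelled E14 and E16, 7 between those labelled E14 and E18, and 7 between those labelled E16 and E18. Since the classes were cut from other genes of the same cells, class differences below are descriptions.

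The stretches upstream of the genes are shown because the neurogenins act through E-boxes. RefSeq promoters of assembly GRCr8 were found for 5 of the 6 members, all but Insm1. The 250 bases before the annotated start are shown for Gadd45g (chr17:13530352-13530601, minus strand), Neurog2 (chr2:218766955-218767204, plus strand) and Eomes (chr8:127058965-127059214, plus strand), in lower case, with any E-box in capitals. An E-box was searched as CANNTG, which reads the same on both strands.
Gadd45g: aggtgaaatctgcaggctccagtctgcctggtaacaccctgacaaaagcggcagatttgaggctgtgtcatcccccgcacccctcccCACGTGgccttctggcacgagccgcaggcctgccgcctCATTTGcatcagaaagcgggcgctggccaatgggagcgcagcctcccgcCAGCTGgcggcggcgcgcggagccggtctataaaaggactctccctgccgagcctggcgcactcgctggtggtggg
Neurog2: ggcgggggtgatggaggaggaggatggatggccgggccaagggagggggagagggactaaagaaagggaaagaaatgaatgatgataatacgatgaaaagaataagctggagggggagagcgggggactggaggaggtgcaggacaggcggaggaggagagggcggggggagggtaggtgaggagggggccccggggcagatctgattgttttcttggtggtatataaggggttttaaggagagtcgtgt
Eomes: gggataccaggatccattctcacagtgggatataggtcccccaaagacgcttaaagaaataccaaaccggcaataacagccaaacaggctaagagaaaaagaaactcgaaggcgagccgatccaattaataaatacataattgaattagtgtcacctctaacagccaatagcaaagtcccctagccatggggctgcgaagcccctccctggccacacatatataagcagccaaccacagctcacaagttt
Gadd45g held 3 E-boxes, CACGTG starting 163 bases before the start, CATTTG at 125 bases and CAGCTG at 76 bases. It was the only 1 of the 5 members with an E-box in this window, whereas 65.5% of the 33469 RefSeq promoters of this length held at least 1. The E-box forms CAGATG and CATATG, present in 13.96% and 3.63% of all promoters on either strand, were in none of the 5. A CCAAT box, searched as CCAAT on both strands, was in 4 of the 5 members against 34.0% of all promoters, and TATAAA, searched likewise, was in Gadd45g alone of the 5 against 12.9%. A match here is a run of letters, and the missing letters say nothing of binding elsewhere.

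All 6 members were higher in intermediate progenitors than in radial glia in each library, by at least 2-fold with 1 CPM added to both levels. Over all genes with a mean of at least 5 CPM in the 2 classes, 4.68% were at least 2-fold higher in the library labelled E14, 5.22% in that labelled E16 and 4.58% in that labelled E18. The median log2 ratio of the 6 members was 1.62, 4.28 and 2.87, beside -0.09, -0.09 and -0.10 over all genes. In the library labelled E14 this count depended on how the classes were cut. With each library clustered on its own, 2 of the 6 members, Neurog1 and Eomes, kept a difference of at least 2-fold there, at log2 ratios of 1.66 and 1.78. Neurog2, Btg2, Insm1 and Gadd45g then stood at log2 ratios of 0.97, 0.82, 0.81 and 0.49.

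**Figure D1:**
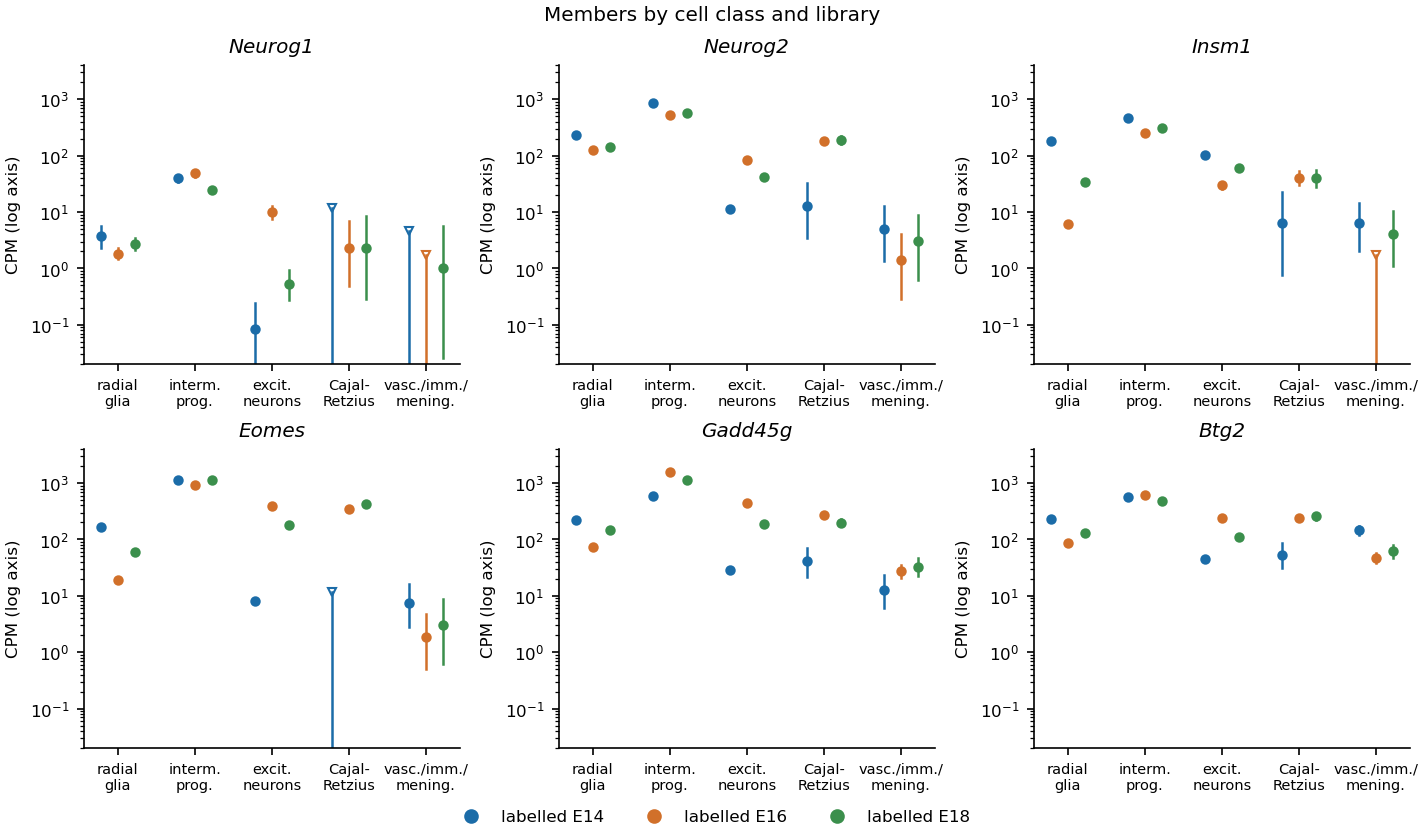
Level of each member in CPM (log axis) in 5 cell classes, by library. Points are UMIs summed over the cells of a class per 1000000 UMIs, bars are exact 95% Poisson intervals (counting error only), and open triangles are upper limits where no UMI was seen. In each panel the intermediate progenitors of a library lie above its radial glia and its excitatory neurons.

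Neurog2, the main proneural factor of the dorsal cortex, stood in radial glia at 237, 127 and 144 CPM in the libraries labelled E14, E16 and E18. Intermediate progenitors of the same libraries held it at 859 CPM (interval 834 to 885), then 520 CPM (499.5 to 541), then 575 CPM (562 to 589). It was thus higher in the intermediate progenitors of every library, by 3.62-, 4.08- and 3.98-fold. In all excitatory neurons together it was down to 11.1, 82.3 and 41.1 CPM. With the unnamed cluster 12 counted as neurons it was 21.4 CPM in the library labelled E14. In that labelled E16 the level depended on how the class was cut. Its log2 ratio of neurons over radial glia there was -0.62, and ranged from -3.44 to -0.57 over the alternatives that gave a value.

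Neurog1, its relative with a narrower cortical expression, was seen in few UMIs, 236, 390 and 393 over all kept cells. Intermediate progenitors held 86.4%, 56.9% and 75.3% of them, at 39.9, 48.4 and 24.3 CPM, against 3.69, 1.83 and 2.75 CPM in radial glia. Of the Neurog2 UMIs, in contrast, intermediate progenitors held 65.8%, 26.1% and 59.2%, and radial glia 21.1%, 63.6% and 30.9%. In the library labelled E16, where radial glia were 59.8% of kept cells, most Neurog2 UMIs therefore came from radial glia. The share of a gene's UMIs follows the number and depth of the cells as well as its level.

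Eomes, the defining factor of intermediate progenitors, stood there at 1132 CPM (interval 1103 to 1162) in the library labelled E14, 924 CPM (896 to 952) in that labelled E16 and 1125 CPM (1107 to 1144) in that labelled E18. Its class levels in the libraries labelled E14 and E18 overlapped within counting error, but its levels within clusters did not match. In cluster 6 it stood at 1539, 965 and 1257 CPM in the libraries labelled E14, E16 and E18, in cluster 11 at 725, 878 and 1056 CPM, and in cluster 15 at 647, 965 and 1022 CPM. The library labelled E14 was thus highest in cluster 6 and lowest in the others. In radial glia it stood at 168, 19.1 and 60.4 CPM, so the ratio of the classes was 6.69-, 46.0- and 18.4-fold. The spread of that ratio came from the radial glia, since the class levels in intermediate progenitors lay within 1.23-fold of each other.

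Insm1 stood in intermediate progenitors at 466 CPM (448 to 485), then 253 CPM (239 to 268), then 314 CPM (304 to 324), and in radial glia at 181, 6.15 and 34.0 CPM. Of the 6 members it had the widest range over libraries in radial glia, 25.4-fold between those labelled E14 and E16. Gadd45g stood in intermediate progenitors at 582 CPM (562 to 604), then 1594 CPM (1557 to 1631), then 1152 CPM (1133 to 1171), and in radial glia at 223, 72.4 and 144 CPM. Btg2 stood in intermediate progenitors at 567 CPM (546 to 588), then 618 CPM (596 to 642), then 471 CPM (459 to 484), and in radial glia at 231, 86.9 and 130 CPM. For Btg2 the ratio of the classes was 2.44-, 7.05- and 3.61-fold.

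Btg2 and the Gadd45 genes are also known to respond to cell stress, so 8 immediate-early and heat shock genes, chosen after the data were seen, were set beside them. In intermediate progenitors Fos stood at 4.49, 4.58 and 4.60 CPM, Egr1 at 1.76, 1.31 and 0.986, Jun at 121, 107 and 125, and Ier2 at 109, 213 and 152, in the order E14, E16 and E18. Fosb, Junb and Atf3 were each under 2 CPM there, and Hspa1a stood at 0.195, 2.18 and 8.54 CPM. Fos was in like amounts in the 3 libraries, and Ier2 had the same order of libraries as Gadd45g. The part of these genes in the levels of Gadd45g and Btg2 was not tested.

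Intermediate progenitors were next set against neurons. All 6 members were at least 2-fold higher in them than in newborn excitatory neurons in the libraries labelled E14 and E18, where 13.8% and 9.7% of all genes were. In the library labelled E14 that count rested on the class as cut here, with 234 cells. Under each of the 5 alternatives that cut the classes anew and gave a value, Insm1 lost the 2-fold difference there, at log2 ratios of 0.57 to 0.90 in place of 1.31, and the count was 5. The library labelled E16 had only 4 cells in that class and is left out of that comparison. Against all excitatory neurons, a comparison added after the data were seen, all 6 were at least 2-fold higher in the libraries labelled E14, E16 and E18, beside 14.5%, 9.55% and 11.0% of all genes. The library labelled E16 gave no value for this comparison under 3 alternatives, which left 17, 4 and 14 of its 598 neurons in the class. With the unnamed cluster 12 counted as neurons, all 6 were so in the library labelled E14 too, beside 13.1% of all genes. Neurog1 had no UMI among 3521767 in the newborn neurons of the library labelled E14, which allows up to 0.852 CPM, and stood at 0.604 CPM in those labelled E18. Insm1 had the smallest ratio over newborn neurons in the library labelled E14, 2.48-fold, and Btg2 in that labelled E18, 3.30-fold.

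Detection per cell depends on depth, so every cell was thinned to 2000 UMIs, and 40 radial glia and 8 intermediate progenitors with fewer were left out. At that depth Eomes had a UMI in 81.7%, 75.2% and 82.9% of intermediate progenitors in the libraries labelled E14, E16 and E18, and Neurog2 in 66.9%, 53.0% and 61.2%. Insm1 had a UMI in 58.6%, 38.5% and 41.9%, Gadd45g in 60.2%, 81.8% and 78.3%, Btg2 in 61.3%, 64.2% and 56.0%, and Neurog1 in 6.71%, 8.75% and 4.52%. Without thinning, Eomes was seen in 97.0%, 95.8% and 98.5% of intermediate progenitors and Neurog2 in 90.6%, 84.4% and 91.9%.

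Cells of vessels, meninges and microglia, which should lack the neurogenins and Eomes, give the level of free RNA. Their median depth was 13310 UMIs, beside 10850 in intermediate progenitors and 13218 in radial glia. At 2000 UMIs, 0 of 225 such cells had a Neurog2 or a Neurog1 UMI, 1 had an Insm1 UMI (0.444%) and 2 had an Eomes UMI (0.889%). Without thinning, the shares were 3.96% for Neurog2, 0.441% for Neurog1, 2.64% for Insm1 and 3.08% for Eomes. Gadd45g was seen in 3.56% and Btg2 in 8.0% of these cells at 2000 UMIs, and such cells are not known to lack either gene. The shares of radial glia with a Neurog2 UMI at that depth, 23.9%, 20.0% and 18.3%, lay above that level, as did those with an Eomes UMI in the libraries labelled E14 and E18, 14.3% and 8.81%. In the radial glia of the library labelled E16 the Eomes share of 3.11% lay inside the interval of its background share (0.108 to 3.17). The Insm1 share there, 1.25% (0.882 to 1.72), also lay inside that of its own (0.0113 to 2.45). The levels, summed over all UMIs, do set them apart within that library. Eomes stood at 19.1 CPM (17.8 to 20.4) in its radial glia against 1.85 CPM (0.503 to 4.73) in its cells of vessels, meninges and microglia, and the same reading for Insm1 is given with its clusters.

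Most intermediate progenitors carried several members at once. At 2000 UMIs, UMIs of 3 or more members were found in 74.3% (69.9 to 78.4), 72.5% (67.8 to 76.8) and 74.0% (71.2 to 76.6) of them in the libraries labelled E14, E16 and E18, and the intervals overlap. With each library clustered on its own, the share labelled E14 fell below its interval and that labelled E16 rose above its own, as given at the end. All 6 members were found together in 9, 5 and 9 cells. In radial glia, 17.5% (13.9 to 21.5), 3.21% (2.61 to 3.91) and 7.70% (6.50 to 9.03) carried 3 or more members, with no overlap between the intervals. Among excitatory neurons the share was 0.505%, 19.4% and 7.85%, with the library labelled E14 lowest there and highest in radial glia. These are not the same neurons, since each library supplied its own clusters. The class labelled E16 is nearly all cluster 10, with 594 of its 598 cells, led by Calb1, Calb2, Lhx9 and Ebf1 and with Cajal-Retzius as its second-best name, and the unnamed cluster 12 labelled E14 is outside the class. No cell of vessels, meninges or microglia carried 3 or more, of 225. At full depth the figures were 98.2%, 96.3% and 98.9% for intermediate progenitors and 43.9%, 20.1% and 30.0% for radial glia, beside 3.96% for cells of vessels, meninges and microglia.

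**Figure D2:**
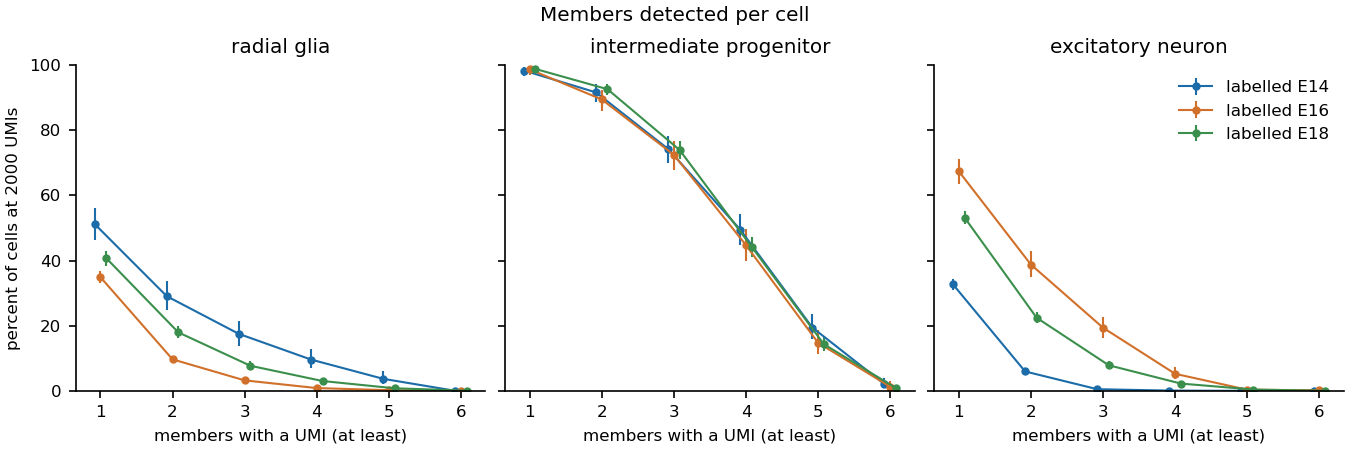
Percent of cells (y axis) with UMIs of at least the given number of members (x axis), for cells thinned to 2000 UMIs, by class and library. Bars are exact 95% binomial intervals. The 3 libraries run close together in intermediate progenitors and apart in radial glia, where that labelled E14 is highest.

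Within radial glia, a member was mostly found at a higher share among cells with another member than among the rest. Most radial glia with any member at 2000 UMIs in the libraries labelled E16 and E18 had only 1, since 1033 and 731 cells had at least 1 member and 286 and 322 had at least 2. Of the pairs of members with at least 10 cells to judge by, 10 of 14, 13 of 14 and 14 of 15 had a higher share of the partner among cells with the first gene than among the rest, with intervals that did not overlap, in the libraries labelled E14, E16 and E18. In intermediate progenitors this held for 6, 3 and 3 of 15 pairs. No pair in either class had non-overlapping intervals in the opposite direction. Cells with many and few members differ in other genes too, and a thinned cell can miss a gene that it holds.

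Radial glia with a Neurog2 UMI were the clearest case. Gadd45g was found in 58.8% of them in the library labelled E14, 23.0% in that labelled E16 and 44.5% in that labelled E18, against 10.7%, 5.49% and 8.33% of radial glia without a Neurog2 UMI. Eomes was found in 38.1%, 7.78% and 25.3%, against 6.80%, 1.94% and 5.12%. Insm1 was found in 39.2%, 4.06% and 20.1%, against 16.5%, 0.549% and 4.44%. Btg2 was found in 52.6%, 23.2% and 31.4%, against 21.0%, 13.3% and 17.9%. In all 12 of these comparisons the intervals lay apart.

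The Notch pathway was read in the same cells. Dll1, a Notch ligand and known neurogenin target, was found in 7.22%, 8.97% and 10.7% of Neurog2-positive radial glia against 0.971%, 1.39% and 0.887% of the rest, with intervals apart in each library. Hes1, a Notch effector that represses proneural genes, was found in 7.22% (2.95 to 14.3) of Neurog2-positive radial glia and 24.6% (19.9 to 29.8) of the rest in the library labelled E14. In the libraries labelled E16 and E18 its shares were 16.9% against 19.6% and 22.0% against 25.6%, with overlapping intervals. Without thinning, Hes1 was found in 44.6%, 68.6% and 71.5% of Neurog2-positive radial glia against 69.4%, 64.0% and 73.2% of the rest.

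**Figure D3:**
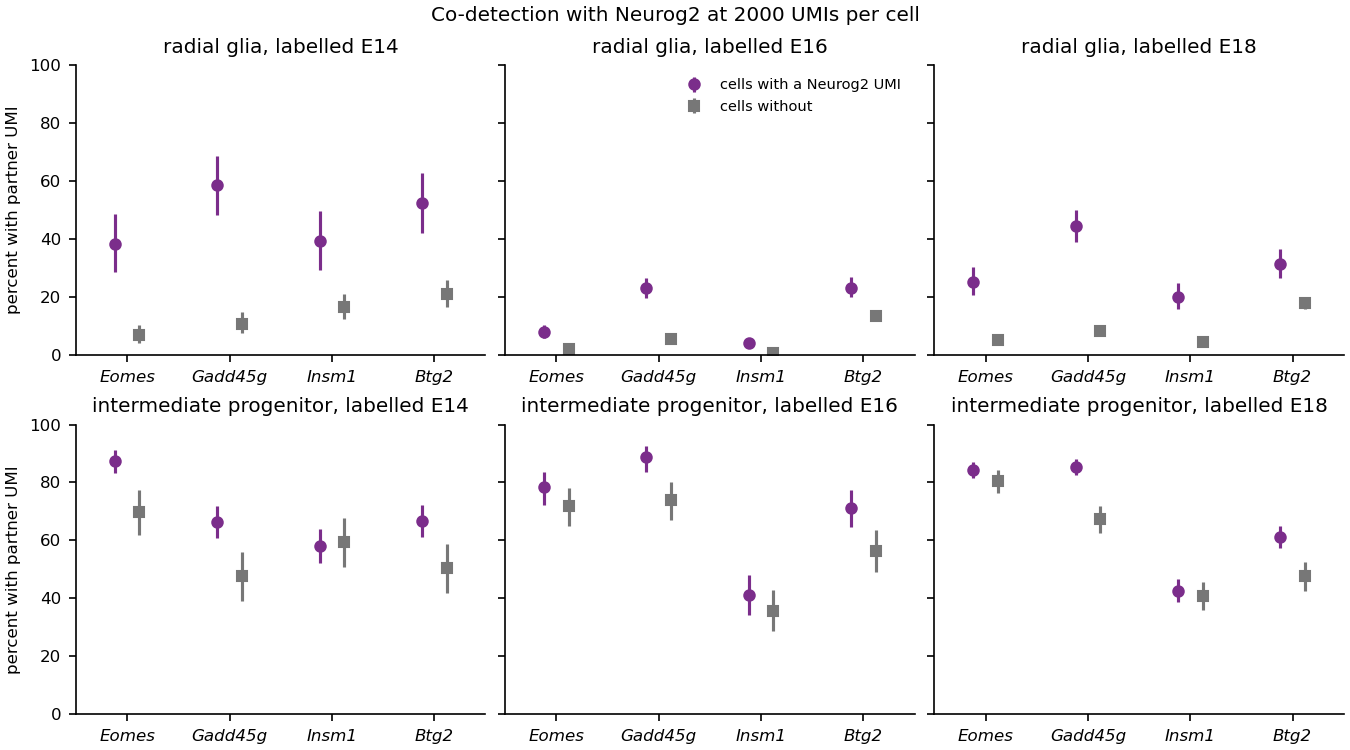
Percent of cells (y axis) with a UMI of Eomes, Gadd45g, Insm1 or Btg2 among cells with a Neurog2 UMI (circles) and without (squares), at 2000 UMIs per cell, for radial glia (top) and intermediate progenitors (bottom) of each library. Bars are exact 95% binomial intervals. In radial glia the circles lie above the squares in every panel, and in intermediate progenitors the Insm1 symbols overlap.

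In intermediate progenitors Neurog2 and Insm1 did not go together in this way. Insm1 was found in 58.1%, 41.0% and 42.7% of Neurog2-positive cells and in 59.4%, 35.6% and 40.8% of the rest. Gadd45g was found in 66.4%, 88.7% and 85.4% against 47.6%, 73.9% and 67.2%, with intervals apart in each library. Eomes was found in 87.5% against 69.9% in the library labelled E14, with intervals apart, and in 78.3% against 71.8% and 84.4% against 80.6% in the others, with overlap. Neurog1-positive intermediate progenitors, 29, 35 and 48 cells, had a Neurog2 UMI in 75.9%, 68.6% and 70.8% of cells, against 66.3%, 51.5% and 60.7% of the rest, and the intervals overlapped in each library.

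Pooling radial glia and intermediate progenitors, an Eomes UMI was found in 75.1% of Neurog2-positive cells in the library labelled E14, 26.4% in that labelled E16 and 64.6% in that labelled E18. The make-up of the pool differed, with 2978 radial glia to 404 intermediate progenitors in the library labelled E16 and 410 to 435 in that labelled E14, and the share within radial glia differed too, as given above. Their parts in the pooled share were not tested.

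The libraries were next set against each other within each class. The shares over all genes count both directions for intermediate progenitors and a single direction for radial glia. The counts of the classes are therefore not compared with each other. In intermediate progenitors 1 member of 6, Gadd45g, passed 2-fold between the libraries labelled E16 and E14, where 10.6% of all genes did. It was 2.73-fold higher in that labelled E16. No member passed 2-fold between those labelled E18 and E14 or between those labelled E18 and E16, where 3.22% and 3.42% of all genes did. From E14 to E18 as labelled, Gadd45g was 1.98-fold higher, and from E16 to E18 as labelled, Neurog1 was 1.95-fold lower, both just inside the threshold, and the counts of 0 became 1 under several of the alternatives listed at the end.

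Gadd45g was higher with the label E16 than with the label E14 in each cluster of intermediate progenitors, by 1.85-fold in cluster 6, under the threshold, and by 4.72- and 3.86-fold in clusters 11 and 15. In cluster 6, with little of the proliferation gene Mki67, Gadd45g stood at 777, 1441 and 1525 CPM in the libraries labelled E14, E16 and E18. In cluster 11 it stood at 406, 1917 and 999 CPM, and in cluster 15 at 328, 1270 and 801 CPM. The library labelled E14 was lowest in all 3 clusters, although the order of the other libraries changed. Over the whole class, its ratio between those labelled E16 and E14 was above 2-fold under each alternative of filtering, clustering or scaling, at log2 ratios of 1.38 to 1.91. Insm1 was highest in the library labelled E14 in every cluster, at 406, 258 and 267 CPM in cluster 6, 547, 259 and 378 CPM in cluster 11, and 512, 246 and 299 CPM in cluster 15. Gadd45g and Insm1 thus had opposite orders between the libraries labelled E14 and E16 in these cells.

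**Figure D4:**
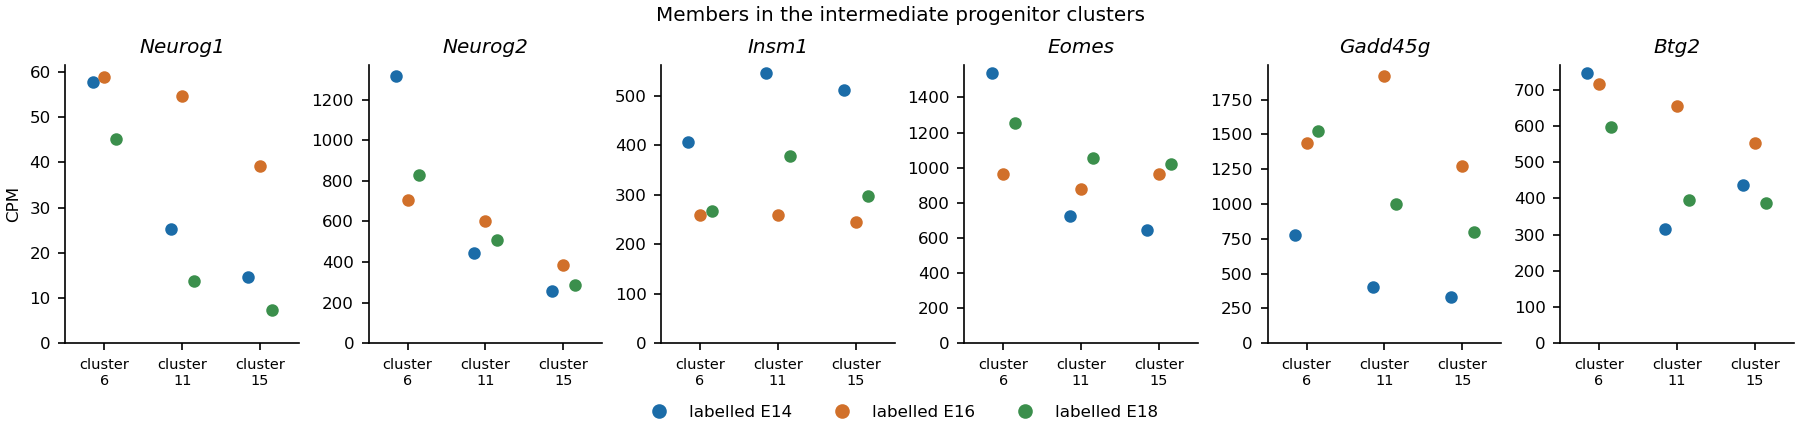
Level of each member in CPM (linear axis) in the 3 clusters of intermediate progenitors, by library. Each point is the UMI sum of 48 to 471 cells. Gadd45g is lowest and Insm1 highest in the library labelled E14 in every cluster, and Neurog2 is highest in cluster 6, which has the least Mki67.

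The clusters also differed among themselves. Neurog2 stood at 988 CPM in cluster 6, 523 in cluster 11 and 313 in cluster 15 over all libraries, while Mki67 stood at 20.8, 587 and 638 CPM. Neurog1 stood at 50.3, 27.1 and 18.6 CPM in the same order. Both neurogenins had this order of clusters within each library too. Eomes stood at 1336, 949.6 and 938 CPM over all libraries, but in the library labelled E16 cluster 6 was level with cluster 15, as given above. Neurod1, a bHLH factor of the next step, was highest in cluster 15 in each library, at 346, 645 and 672 CPM in those labelled E14, E16 and E18, against 263, 270 and 325 CPM in cluster 6 and 235, 438 and 426 CPM in cluster 11. Cluster 6 held 58.4% of the intermediate progenitors labelled E14, 44.4% of those labelled E18 and 11.9% of those labelled E16, so class levels of Neurog2, Neurog1 and Eomes depend on that share.

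In radial glia, Insm1, Eomes, Gadd45g and Btg2 were at least 2-fold lower with the label E16 than with the label E14, where 7.32% of all genes were. The differences were 25.4-, 8.44-, 3.06- and 2.64-fold. All 4 stayed above 2-fold under each alternative that gave a value, but their sizes moved, with log2 ratios from -4.96 to -3.56 for Insm1, -3.92 to -2.62 for Eomes, -2.30 to -1.24 for Gadd45g and -1.82 to -1.22 for Btg2. Neurog2 was 1.86-fold lower, inside the threshold, and its log2 ratio ranged from -1.44 to -0.24 over the alternatives. Neurog1, at 1.83 against 3.69 CPM, was under the minimum of 5 CPM and is not counted. Insm1 and Eomes were also 5.20- and 2.76-fold lower with the label E18 than with the label E14, where 3.31% of all genes were at least 2-fold lower. They were 4.89- and 3.05-fold higher with the label E18 than with the label E16, where 2.06% of all genes were at least 2-fold higher. These counts depended on how the classes were cut. With no doublets removed, Eomes lost the 2-fold difference between E18 and E14, at a log2 ratio of -0.79. With each library clustered on its own, Neurog2, Gadd45g and Btg2 gained it, at -1.35, -1.17 and -1.18, and Neurog2 passed 2-fold between E16 and E14. With 500 genes and 20% mitochondrial UMIs as the filter it did so too. With 2000 genes and 5% it was nearly level between E18 and E14, at -0.08, and with no doublets removed Gadd45g was so, at -0.06. Gadd45g, at a log2 ratio of 0.98 between E18 and E16, ranged from 0.90 to 1.46 over the alternatives, on both sides of the threshold. The comparisons share libraries and are not independent.

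The clusters of radial glia were then read one by one, where a library had at least 30 cells. Eomes stood in clusters 2, 8 and 18 at 295, 52.5 and 37.0 CPM with the label E14. With the label E18 it stood at 110, 24.2 and 23.8 CPM. Neurog2 was higher with the label E14 than with the label E18 in cluster 2, at 413 against 218 CPM. In clusters 8 and 18 it was lower, at 72.9 against 84.1 and 57.6 against 92.8 CPM. Insm1 stood at 246, 117 and 120 CPM in clusters 2, 8 and 18 in the library labelled E14, and at 54.4, 20.5 and 16.6 CPM in the same clusters in that labelled E18. In clusters 1, 3, 14 and 16 it stood at 5.48, 7.97, 4.34 and 4.01 CPM in the library labelled E16. The library labelled E18 had 33 cells in cluster 1 and 40 in cluster 16, with Insm1 at 5.81 and 23.8 CPM, values of few cells from which no comparison is drawn. Clusters 3 and 14 held enough cells of the library labelled E16 alone, and no cluster held enough of both those labelled E14 and E16. In the GABAergic cells, a lineage of another origin, Insm1 stood at 9.01, 20.4 and 7.11 CPM in the libraries labelled E14, E16 and E18, from 3, 12 and 3 UMIs, with overlapping intervals, so no order of libraries can be read there. Insm1 in cells of vessels, meninges and microglia stood at 6.27, 0 and 4.07 CPM. The 181 CPM of radial glia labelled E14 lay far above the value of their own library. In the library labelled E16 the 0 UMIs in those cells allow up to 1.38 CPM, and the 6.15 CPM of radial glia (5.46 to 6.91) lay above that.

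Within radial glia, Neurog2, Gadd45g and Btg2 stood higher in cells without a UMI of S phase or mitotic genes. Cells were split by 12 S phase genes and 12 mitotic genes at 2000 UMIs, a depth at which a cycling cell can show none of them. Only 61, 26 and 74 radial glia, 15.02%, 0.879% and 4.13% of the class, had no UMI of either list. In these cells Neurog2 stood at 912 CPM (841 to 989), then 239 CPM (182 to 308), then 525 CPM (475 to 578), against 125, 124 and 116 CPM in radial glia with a mitotic UMI. Radial glia with a mitotic UMI were 64.8%, 79.9% and 70.7% of the class. Of these, 42, 394 and 195 cells had only a single such UMI. Cells with a mitotic UMI are called mitotic below by that UMI alone. Neurog2 was nearly level over the libraries in these radial glia, between 116 and 125 CPM, and far apart in those with neither kind of UMI.

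Gadd45g stood at 708, 406 and 799 CPM in radial glia with neither kind of UMI against 147, 61.2 and 97.2 CPM in mitotic ones. Btg2 stood at 706, 247 and 356 CPM against 157, 82.3 and 117 CPM. Eomes stood at 723 and 277 CPM in the libraries labelled E14 and E18 against 87.2 and 37.4 CPM, and in that labelled E16 at 11.9 CPM (2.46 to 34.9) against 18.0 CPM, within counting error. Insm1 stood at 504 and 113 CPM in the libraries labelled E14 and E18 against 142 and 25.7 CPM, and in that labelled E16 at 7.96 CPM (0.964 to 28.8) against 5.75 CPM, within counting error. The higher radial glia levels of the library labelled E14 go with a higher share of such cells there, and the part of that share in the difference between libraries was not tested. Such cells labelled E14 held Neurog2, Insm1 and Gadd45g at 912, 504 and 708 CPM, beside 859, 466 and 582 CPM in intermediate progenitors of that library. Eomes stood at 723 against 1132 CPM. Whether some of these radial glia belong with the intermediate progenitors was not tested. In radial glia with a mitotic UMI, which are most of the class in each library, Insm1 stood at 142, 5.75 and 25.7 CPM. Eomes stood in them at 87.2, 18.0 and 37.4 CPM.

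**Figure D5:**
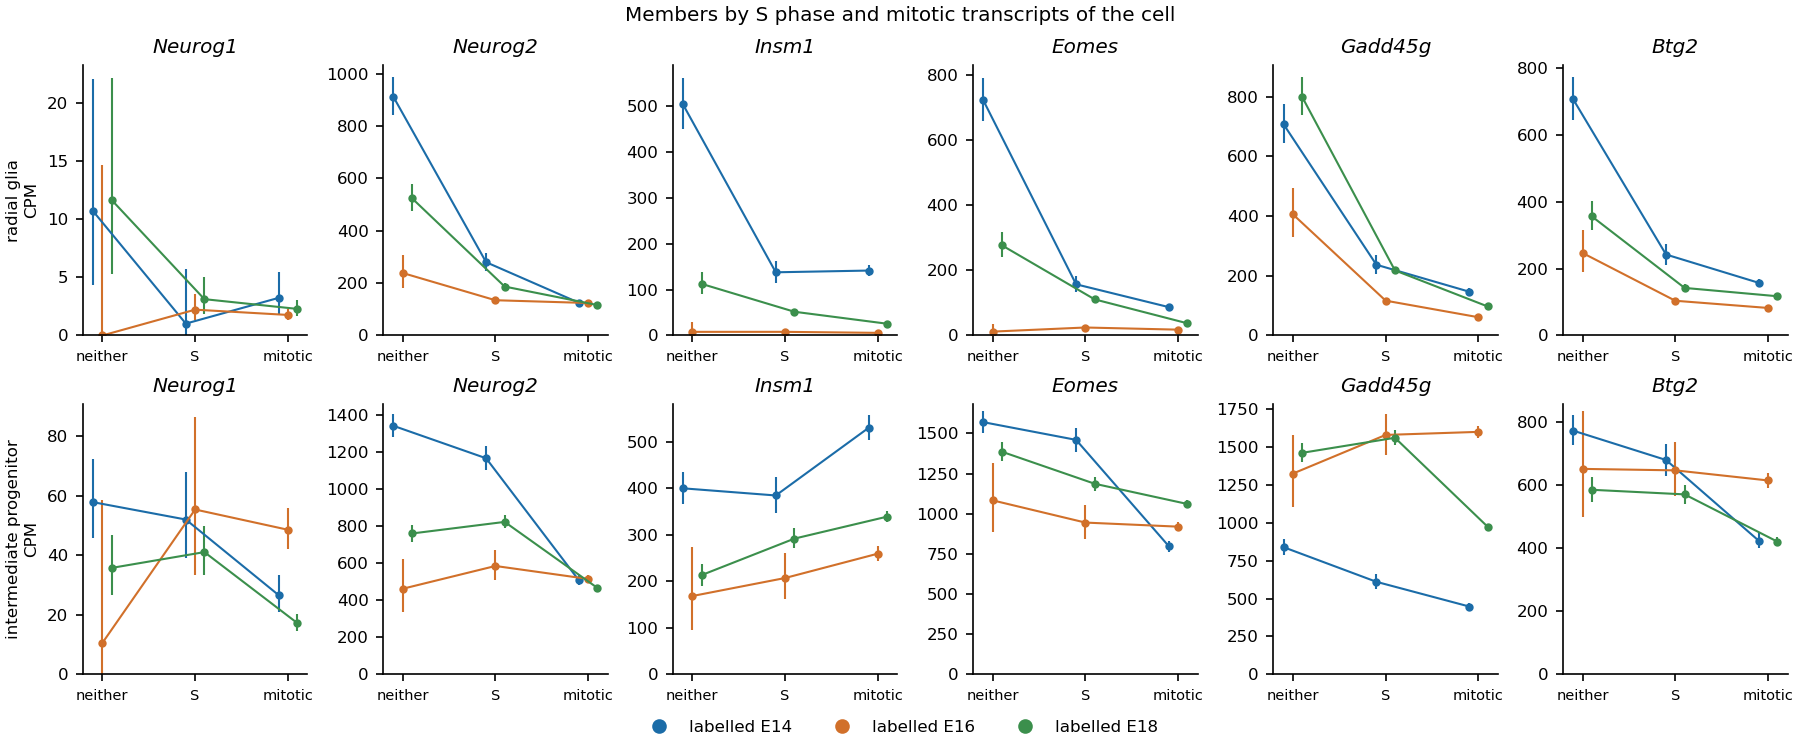
Level of each member in CPM (linear axis, own scale in each panel) in radial glia (top) and intermediate progenitors (bottom), split into cells with neither S phase nor mitotic UMIs, with S phase but no mitotic UMIs, and with mitotic UMIs. Bars are exact 95% Poisson intervals and lines join the values of a library. In radial glia Gadd45g and Btg2 are highest in cells with neither kind in all libraries, and in intermediate progenitors Insm1 is highest in mitotic cells.

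In intermediate progenitors, 134, 13 and 164 cells had neither kind of UMI. Neurog2 stood in them at 1344 CPM (1283 to 1408) and 762 CPM (718 to 807) in the libraries labelled E14 and E18, against 508 and 467 CPM in mitotic cells. In the 13 cells labelled E16 it stood at 463 CPM (336 to 621) against 516 CPM, within counting error. Insm1 ran the opposite way, at 399.7, 168 and 213 CPM in cells with neither kind against 529.7, 259 and 339 CPM in mitotic cells, with intervals apart in the libraries labelled E14 and E18. The direction of Insm1 between cells with neither kind and mitotic cells was therefore not the same in radial glia and intermediate progenitors of those 2 libraries.

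Neurons were described by cluster, since each library supplied its own. The clusters with the highest Neurod1 among the neuron clusters made mainly of 1 library were cluster 12 labelled E14, unnamed because the intermediate progenitor markers Sstr2 and Mfap4 were among its leading genes, cluster 10 labelled E16 and cluster 7 labelled E18. Eomes stood in these at 516, 391 and 642 CPM and Neurog2 at 111, 82.3 and 111 CPM. Btg2 stood at 259, 237 and 237 CPM, and Gadd45g at 138, 450 and 389 CPM, lowest in the cluster labelled E14. Insm1 stood at 227, 29.5 and 68.1 CPM, highest there. Neurog1 stood at 1.69, 9.96 and 1.16 CPM. Each cluster has its own leading genes and comes mainly from 1 library, so neuron kind and library cannot be told apart.

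In most of the later clusters Eomes was low. In clusters 0, 5 and 9 of the library labelled E14 it stood at 9.55, 3.14 and 7.201 CPM, and in clusters 4 and 13 of that labelled E18 at 14.5 and 11.0 CPM. In cluster 19 it stood at 4.40 CPM in the library labelled E14 but at 70.1 CPM in the 56 cells labelled E18, which also held Neurod1 at 1412 CPM. Neurog2 stood between 5.20 and 18.3 CPM in clusters 0, 4, 5, 9 and 13. Insm1 stayed higher, at 210 CPM in cluster 0 and 191 CPM in cluster 19 of the library labelled E14, 76.1 CPM in cluster 4 labelled E18, and 41.3, 39.7 and 35.7 CPM in clusters 5, 9 and 13. Excitatory neurons held 45.8%, 8.90% and 22.3% of all Insm1 UMIs of the libraries labelled E14, E16 and E18. In that labelled E14 they were 64.9% of kept cells. Their Insm1 level there, 104 CPM, lay below the 181 CPM of radial glia.

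Eomes was also present in Cajal-Retzius cells, the Reln-producing neurons at the surface of the early cortex. It stood there at 343 CPM (312 to 377) in 143 cells labelled E16 and 423 CPM (380 to 469) in 66 cells labelled E18, with Neurog2 at 180 and 192 CPM. In the 16 cells labelled E14 no Eomes UMI was found among 318320, which allows up to 9.42 CPM. Neurog1 in this class had 0, 3 and 2 UMIs.

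The other genes of the pathway were read from lists of related genes. Of 11 neurogenin targets and neuronal differentiation genes, 10, 11 and 11 were at least 2-fold higher in intermediate progenitors than in radial glia in the libraries labelled E14, E16 and E18, against the 4.68%, 5.22% and 4.58% given above. The list's median log2 ratio was 2.85, 3.32 and 3.23. Dll1 was the gene that missed the threshold in the library labelled E14, at 35.6 CPM against 21.6 CPM, and it stood at 151 against 17.4 CPM and 61.9 against 15.2 CPM in the others. Rnd2, a small GTPase known to act downstream of Neurog2 in migration, stood at 438, 386 and 420 CPM against 30.5, 37.6 and 43.9 CPM. Dll3, another Delta-like gene, stood at 45.5, 98.4 and 61.8 CPM against 5.20, 1.40 and 1.88 CPM.

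The E proteins Tcf3, Tcf4 and Tcf12, partners of the neurogenins, did not pass 2-fold in either direction, with median log2 ratios of 0.21, -0.02 and -0.18. Of 7 antagonists and Notch effectors, 6 of 7, 5 of 7 and 5 of the 6 measured were at least 2-fold lower in intermediate progenitors, where 8.49%, 7.96% and 7.65% of all genes were. Hes1 stood at 2.54, 5.02 and 9.94 CPM against 112, 109 and 143 CPM. Id4, which blocks bHLH pairing, stood at 145, 469 and 223 CPM against 1039, 1878 and 1564 CPM. Id1 did not pass in the library labelled E16 and was under 5 CPM in that labelled E18. Id2 passed in none, at 80.5, 107 and 74.3 CPM against 82.7, 58.7 and 55.9 CPM.

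Among 8 relatives of the members, Gadd45a, of the same family as Gadd45g, was at least 2-fold higher in intermediate progenitors in every library, at 25.4, 147 and 58.3 CPM against 5.70, 8.16 and 6.75 CPM, with the library labelled E14 lowest as for Gadd45g. None of the other relatives passed 2-fold among those measured at 5 CPM or more. Btg1, of the Btg2 family, stood at 207, 84.4 and 150 CPM against 354, 103 and 255 CPM.

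Lastly, the level of each member was followed over 16 profiles, each a class in a library with at least 100 cells, and the genes with the most similar course were sought among 9298. Profiles of a library share its depth and preparation, and r describes these profiles only. Among the members themselves, Eomes and Gadd45g were most alike, with r = 0.955, and Insm1 stood apart, with r of 0.535 to 0.723 to the others. Dll1 was closest to Neurog1 (r = 0.920), followed by the uncharacterised LOC103691871 (r = 0.895) and Thrb, a thyroid hormone receptor (r = 0.869). Dll1 was also closest to Gadd45g (r = 0.938), again followed by LOC103691871 (r = 0.916) and then by Mfng (r = 0.908). Pax6, a transcription factor of dorsal progenitors and a marker used in naming the radial glia, was closest to Neurog2 (r = 0.931). Celsr1 (r = 0.924) and Wipi2 (r = 0.922) followed. Mfng, a Fringe enzyme that modifies Notch and a marker used in naming the intermediate progenitors, was closest to Eomes (r = 0.947), followed by Zhx3 (r = 0.923) and Btbd17 (r = 0.920). It was also closest to Btg2 (r = 0.861), followed by Dll1 (r = 0.856) and LOC103691871 (r = 0.843). Nrg1, a growth factor of the neuregulin family, was closest to Insm1 (r = 0.959), followed by Ubald2 (r = 0.928) and Ikzf5 (r = 0.924).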

How the data were processed

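Droplet libraries of rat cortical cells, 1 per label, were deposited as UMI counts per gene and barcode, not normalized, made by the authors with Cell Ranger 6.0.1 on genome build mRatBN7.2 per the submitters' processing notes. Barcodes with at least 1000 genes and at most 10% mitochondrial UMIs were kept, 4444, 5193 and 5690 of 7100, 6707 and 6937 in the libraries labelled E14, E16 and E18. Scrublet scores, run in each library, removed 158, 216 and 259 of these as doublets, at 0.8% per 1000 cells. Library totals were 62740631, 80974234 and 73727823 UMIs. Cells were clustered together with Scanpy 1.11.5 and leidenalg 0.10.2 (2000 variable genes, 30 principal components, 15 neighbours, resolution 1), with no batch correction. Clusters were named from marker lists without the 6 members, by a scoring rule settled after clusters had been seen, so class names are rebuilt and not the authors'.

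CPM is the UMI sum of a class per 1000000 of its UMIs, with exact 95% Poisson intervals, and shares have Clopper-Pearson intervals. A floor where nothing was seen is 3 counts. These cover counting error only. Fold changes used 1 CPM added, over genes with a mean of at least 5 CPM. No test was run, since each label has 1 library. The 2-fold count and the thinning were checked on simulated data. Named were the 6 members, for each the 3 genes of most similar profile, and genes of the lists. The members and lists were chosen with earlier results of these data known. Alternatives changed the filter, clustering, doublets, scaling and thinning. Promoters are RefSeq's, of assembly GRCr8, a different build from the files', matched by symbol. One gene of the lists is not reported here.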

Additional observations from a re-analysis of the deposited data

Results flagged for a closer look

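Gadd45g differed between the libraries labelled E16 and E14 in opposite directions in the 2 progenitor classes. Its log2 ratio of E16 over E14 was -1.61 in radial glia (72.4 against 223 CPM) and 1.45 in intermediate progenitors (1594 against 582 CPM). Btg2 (-1.40 and 0.13) and Neurog1 (-0.73 and 0.27) also changed sign between the classes, but stayed under 2-fold in intermediate progenitors. No cluster of radial glia held enough cells of both libraries, whereas the clusters of intermediate progenitors did. Each label has 1 library, and the difference between the classes was not tested.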

How the results depend on the processing

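No paired analysis was possible because each label has 1 library and no result comes from a test. Of 184 values of the main comparisons under alternatives, 148 kept within the limits set (a count within 1.5 times, a share within its interval) and 36 moved. The count of members at least 2-fold different between libraries in intermediate progenitors became 2 between E16 and E14 and 1 between E18 and E14 under a filter of 2000 genes and 5% mitochondrial UMIs. It became 1 for E18 over E14 and 1 for E18 over E16 with 500 genes and 20%. It also became 1 for E18 over E16 at resolutions 0.5 and 2 and with the members used in clustering, and 1 for E18 over E14 with each library clustered on its own. That setting lowered the count of members higher in intermediate progenitors than in radial glia from 6 to 2 in the library labelled E14. The share of intermediate progenitors with 3 or more members became 78.2% (E16) with the stricter filter, 67.2% (E18) with the looser, 66.2% (E18) at resolution 2, 79.6%, 79.5% and 77.9% (E14, E16, E18) at 2 times the doublet rate, and 65.4% (E14) and 78.4% (E16) with each library on its own. Thinned to 1000 UMIs it was 46.4%, 41.6% and 40.8%, thinned to 5000 UMIs 93.4%, 94.5% and 95.3%, and without thinning 98.2%, 96.3% and 98.9%. The share of Neurog2-positive progenitors with Eomes became 65.4% (E14) with the stricter filter, and 30.0% (E16) and 70.3% (E18) with each library on its own. Thinned to 1000 UMIs it was 66.3%, 20.4% and 48.3%, to 5000 UMIs 84.5% (E14) and 70.5% (E18), and without thinning 84.5% (E14) and 67.9% (E18). Of 1086 values of single members, 772 kept within limits, 312 moved and 2 of at least 2-fold changed sign, both with each library on its own in that labelled E16, where neurons over radial glia became -0.89 (log2) for Neurog1 and -1.08 for Btg2. Ratios under 2-fold also crossed 0, with extremes of -0.56 for Gadd45g in neurons over radial glia (E18), 0.16 for Neurog1 in radial glia (E18 over E14), and, in intermediate progenitors, 0.05 and 0.37 for Eomes (E16 and E18 over E14), 0.15 for Btg2 (E18 over E14) and -0.02 for Neurog2 (E18 over E16). The cause of these moves was not tested. Newborn and maturing neurons could not be split in the same way under each setting, and the library labelled E16 gave no newborn value under some.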
